A study of Homo sapiens with 6 samples.

Results

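The MAGE (melanoma antigen) genes were examined in SUM-159 cells, a triple negative breast cancer line, with and without stable SH3GL2 overexpression. The genes were taken by symbol: MAGEA1, MAGEA4, MAGEA8, MAGEA10, MAGEA11, MAGEB2, MAGEC1 and MAGEC2 of the germline type, and MAGED1 and MAGED2 of the ubiquitous type. All 10 were measured, on 12 of the 22215 probe sets tested, 9 for the 8 germline genes and 3 for the 2 ubiquitous genes. In all, 11963 genes had a probe set that the array's annotation gives to them alone.

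MAGE proteins share a conserved fold, the MAGE homology domain, through which they bind RING-type ubiquitin ligases and change their activity or their substrates. The germline type (MAGEA, MAGEB and MAGEC, all on the X chromosome) is normally transcribed in testis and kept silent by promoter methylation elsewhere, and is made again in many tumors as cancer testis antigens. The ubiquitous type, to which MAGED belongs, is transcribed in many adult tissues.

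Total RNA came from SUM-159 cells transfected stably with the empty vector (3 arrays) or with SH3GL2 in pcDNA 3.1 (3 arrays), so that both groups carried the same backbone. SH3GL2 encodes endophilin A1, an endocytic protein, and both populations were kept under drug selection. Whether the cells were pooled clones or 1 clone, and whether the triplicates were separate cultures, is not stated in the sources used here, so the p-values measure the spread between arrays, which may be technical. Values are log2 signals, and the level read where no transcript is expected was taken from 51 genes typical of unrelated organs (77 probe sets), whose median was 5.02 and whose 95th percentile was 6.87, called the reference here. The array medians ran from 6.97 to 7.02. The transfected gene itself could not check the labels. Its probe set had a log2 signal of 3.22 ± 0.04 with empty vector and 3.26 ± 0.09 with SH3GL2 (SD, n = 3), both below the reference median. Mesenchymal genes expected in this line were present, with VIM (vimentin) at 14.68 and MSN (moesin) at 12.17 with empty vector, and PGR, the progesterone receptor gene, was at 3.63. Of 23 probe sets for luminal and receptor genes 5 were above the reference 95th percentile in both groups, those of KRT18 (11.73), XBP1 (10.27), KRT8 (9.75), 1 of GATA3 (9.57) and 1 of ERBB2 (8.50). In bulk RNA, fewer cells making a transcript and less transcript per cell cannot be told apart.

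Germline MAGE genes fell in part with SH3GL2, and the MAGED genes did not pass the test in either direction. Of the 9 germline probe sets, 4 fell, 1 each of MAGEA11, MAGEC2, MAGEC1 and MAGEB2, none rose, and 5 did not pass (limma, Benjamini-Hochberg adjusted p under 0.05 over all 22215 probe sets). Of these 4, MAGEB2 was under the reference median on every array. Among all probe sets tested 2.18% were lower and 1.99% were higher, 4.17% in either direction. The groups did not overlap at 5 of the 9 germline probe sets, all lower with SH3GL2, and at 0 of the 3 MAGED probe sets, against 19.4% of all probe sets in either direction. Without adjustment the germline count at p under 0.05 was also 4 lower and 0 higher, and 1 passed an analysis of variance run probe set by probe set. Of the 3 MAGED probe sets 0 passed limma, 0 reached 0.05 without adjustment and 0 passed the analysis of variance. Over all 22215 probe sets 3524 were under 0.05 without adjustment, 1693 lower and 1831 higher. The analysis of variance passed 77 of them. At these shares 0 of 3 tells little. The median log2 difference, SH3GL2 minus empty vector, was -0.18 over the 9 germline probe sets, -0.06 over the 3 MAGED probe sets and 0.01 over all probe sets. The genes were listed with these differences already known, so the counts describe the members and are no independent evidence for the type as a whole. The difference between the types was not tested.

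**Figure D1:**
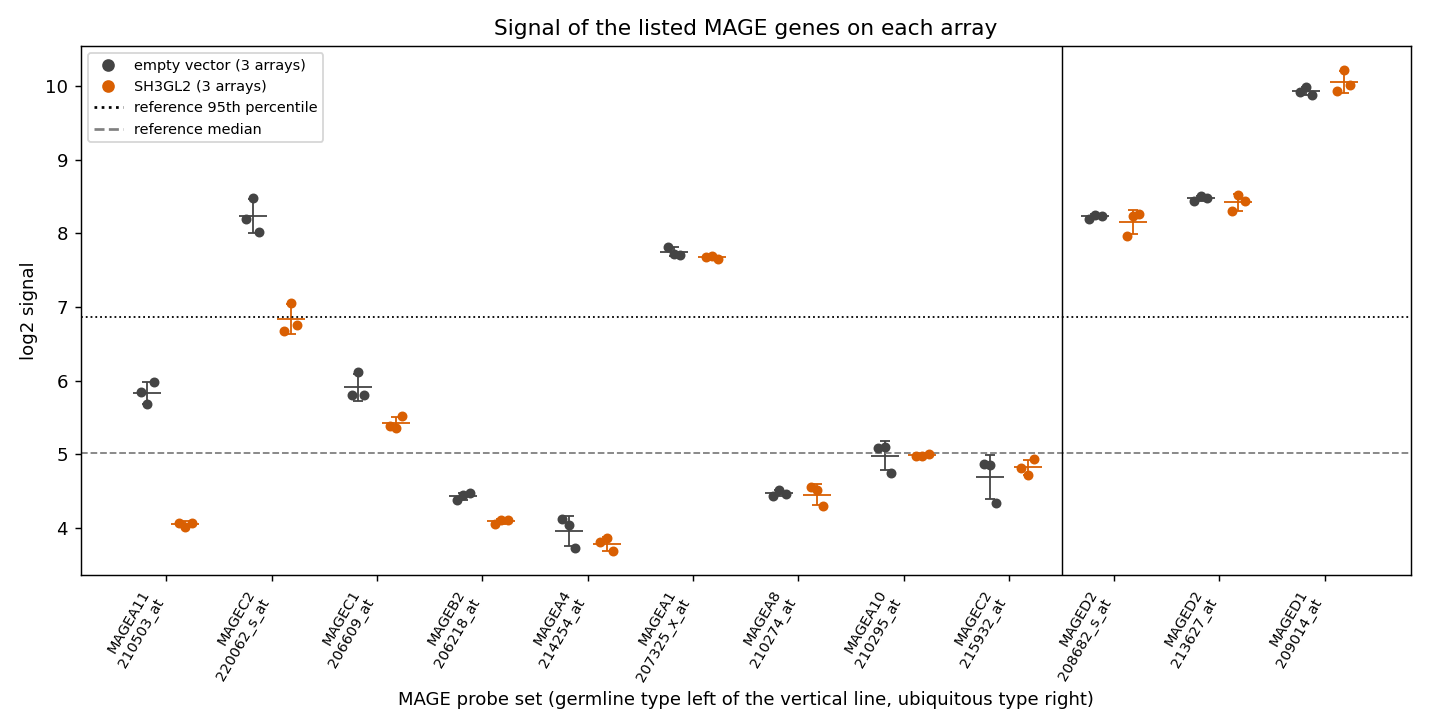
Log2 signal (vertical axis) of the 12 probe sets of the listed MAGE genes, with 1 point per array, dashes and bars for mean and SD (n = 3), a dotted line at the reference 95th percentile of 6.87 and a dashed line at the reference median of 5.02. SH3GL2 points lie clearly below the empty vector points for MAGEA11 and for 1 of the 2 probe sets of MAGEC2, and by less for MAGEC1 and MAGEB2, while MAGED points overlap.

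MAGEA11, a coregulator of the androgen receptor, had the largest difference among the members in the values as deposited. Its probe set read log2 signals of 5.84, 5.68 and 5.98 with empty vector and 4.07, 4.01 and 4.07 with SH3GL2. The lowest empty vector array was 1.61 log2 units above the highest SH3GL2 array, and the SH3GL2 arrays differed among themselves by less than the empty vector arrays. The mean fell from 5.83 ± 0.15 to 4.05 ± 0.03 (SD, n = 3), a log2 difference of -1.78 (SE 0.10, adjusted p = 4.12e-07 from limma), which left 29.1% of the empty vector signal. Both means were below the reference 95th percentile, and the SH3GL2 mean was also below the reference median. The size therefore depends on how low signals are treated: it was -1.17 once 16 was added to the linear signal and -0.81 once lower signals were raised to the reference median, past the threshold both times (adjusted p = 9.23e-07 and 0.0292 from limma). Under these settings the order turned, and MAGEC2 had the larger difference, -1.29 and -1.40.

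MAGEC2, which binds the ubiquitin ligase TRIM28, was measured on 2 probe sets that differed. The first, with the suffix _s_at, read 8.20, 8.48 and 8.02 with empty vector and 6.67, 7.06 and 6.76 with SH3GL2. This suffix marks probes common to several transcripts, which can be of different genes. The array's annotation gives this probe set to MAGEC2 alone. All 3 empty vector arrays lay above the reference 95th percentile, whereas 2 of the 3 SH3GL2 arrays lay under it, and 0.96 log2 units separated the groups. The mean fell from 8.23 ± 0.23 to 6.83 ± 0.20 (SD, n = 3), a log2 difference of -1.40 (95% interval -1.68 to -1.13, adjusted p = 2.96e-05 from limma), with 37.8% of the signal left. On 9 probe sets of 22215 the difference was more negative. The second, with the suffix _at, read 4.87, 4.85 and 4.34 with empty vector and 4.81, 4.72 and 4.93 with SH3GL2, all under the reference median. Those groups overlapped (log2 difference 0.13, adjusted p = 0.725 from limma), and with no signal above the reference the probe set gives no reading of MAGEC2. The fall of MAGEC2 thus rests on 1 probe set, and it did not pass the analysis of variance (adjusted p = 0.101), which uses no information from other probe sets.

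MAGEC1, a tumor antigen with a long repeated region, lies beside MAGEC2 on the X chromosome. Its log2 signals were 5.80, 6.12 and 5.80 with empty vector and 5.38, 5.36 and 5.52 with SH3GL2. The groups did not overlap and stood 0.28 log2 units apart, with replicate 2 the highest empty vector array. Both means, 5.91 with empty vector and 5.42 with SH3GL2, were below the reference 95th percentile. The log2 difference was -0.49 (95% interval -0.73 to -0.25, adjusted p = 0.0254 from limma). MAGEB2, of the MAGEB cluster on the short arm, read 4.37, 4.44 and 4.47 with empty vector and 4.05, 4.10 and 4.11 with SH3GL2. These groups were 0.26 log2 units apart, but every array was under the reference median, at which no transcript can be told from background. Its log2 difference was -0.34 (95% interval -0.53 to -0.15, adjusted p = 0.0477 from limma). Neither call held in all 6 fits that left out 1 array, although the differences kept their direction and much of their size, from -0.54 to -0.38 for MAGEC1 and from -0.37 to -0.32 for MAGEB2. MAGEC1 passed in 2 of the 6 fits that left out 1 array (adjusted p from 0.0316 to 0.103), and lost its call without empty vector replicate 2 and without each SH3GL2 array. MAGEB2 passed in 0 of these 6 (adjusted p from 0.0678 to 0.143), although its unadjusted p in limma was 0.00196 with all arrays.

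**Figure D2:**
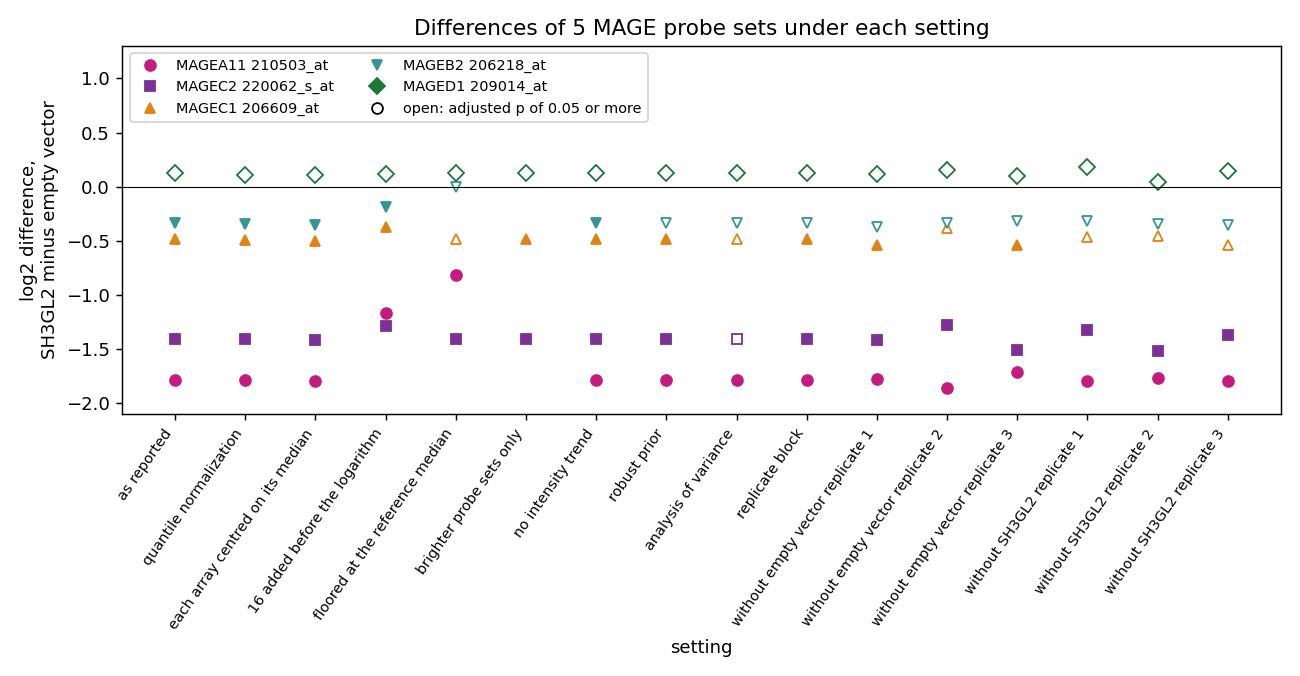
Log2 difference, SH3GL2 minus empty vector (vertical axis), of MAGEA11, the first MAGEC2 probe set, MAGEC1, MAGEB2 and MAGED1 as reported and under each alternative setting (horizontal axis), with open points where the adjusted p was 0.05 or more. MAGEA11 stays filled from -1.86 to -0.81, MAGEC2 is open in the analysis of variance only, and MAGEC1 and MAGEB2 are open in several settings.

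The germline genes that did not pass fell into a bright and a dim group. MAGEA1, one of the earliest tumor antigens found to be recognized by T cells, read 7.82, 7.72 and 7.71 with empty vector and 7.68, 7.69 and 7.65 with SH3GL2. All of its arrays were above the reference 95th percentile. The groups stood only 0.02 log2 units apart, and among all probe sets 8.97% were separated in the same direction. The log2 difference of -0.08 had a 95% interval of -0.24 to 0.09 (adjusted p = 0.725 from limma), which leaves out a fall as large as that of MAGEC2 or MAGEA11. The suffix of this probe set, _x_at, marks probes that can also bind related transcripts, so the value may not be of MAGEA1 alone.

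MAGEA4, MAGEA8 and MAGEA10 were dim. MAGEA4, a target of engineered T cells, read 4.12, 4.03 and 3.73 with empty vector and 3.80, 3.86 and 3.68 with SH3GL2, with a log2 difference of -0.18 (adjusted p = 0.495 from limma). Its groups overlapped. MAGEA8 read between 4.43 and 4.51 with empty vector and between 4.29 and 4.55 with SH3GL2, and its log2 difference was -0.02. MAGEA10 read between 4.75 and 5.10 with empty vector and between 4.98 and 5.00 with SH3GL2, and its log2 difference was 0.01. All group means of these 3 genes were below the reference median, as were those of MAGEB2, and no transcript can be told from background there. The 95% intervals of the signal of MAGEA8 (-0.23 to 0.20) and MAGEA10 (-0.23 to 0.25) leave out the -0.34 read for MAGEB2. The interval of MAGEA4 (-0.42 to 0.06) does not. Since all these signals are at background, the intervals exclude no change in the transcripts.

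The ubiquitous genes had signals well above the reference in all 6 arrays. MAGED1, an adaptor of the neurotrophin receptor NGFR, read 9.92, 9.99 and 9.88 with empty vector and 9.93, 10.22 and 10.01 with SH3GL2. The groups overlapped, and the log2 difference of 0.12 had a 95% interval of -0.04 to 0.29 (adjusted p = 0.503 from limma). MAGED2, a gene mutated in an antenatal form of Bartter syndrome, had 2 probe sets that gave like values. The first (suffix _s_at) read 8.20, 8.25 and 8.24 with empty vector and 7.96, 8.24 and 8.26 with SH3GL2, where replicate 1 was the low array. Its log2 difference was -0.08 (95% interval -0.27 to 0.12, adjusted p = 0.769). The second (suffix _at) read 8.44, 8.51 and 8.48 against 8.30, 8.52 and 8.44, again lowest in SH3GL2 replicate 1, with a log2 difference of -0.06 (95% interval -0.23 to 0.11, adjusted p = 0.812). Both adjusted p are from limma. A miss of the threshold does not show equal levels, but the 3 intervals reach no lower than -0.27. Those of MAGEA11 and the first MAGEC2 probe set end at -1.56 and -1.13. The other germline intervals are not set apart in this way. Those of MAGEC1 and MAGEB2 end at -0.25 and -0.15, and that of MAGEA1 runs from -0.24 to 0.09.

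The rest of the family was set beside the members. Of 31 further genes with a MAGE homology domain, 11 were read by a probe set that names no other gene, 15 probe sets in all. Of these 15, 1 rose, 0 fell (none lower without adjustment at 0.05, 0 by analysis of variance) and 14 did not pass limma. The gene that rose, MAGEF1, is an autosomal member of the ubiquitous type that directs the loss of an iron-sulfur assembly factor. Its log2 signal rose from 8.68 ± 0.04 with empty vector to 9.04 ± 0.08 with SH3GL2 (SD, n = 3), a log2 difference of 0.35 (adjusted p = 0.0131 from limma). This rise did not pass the analysis of variance. MAGEH1, also of the ubiquitous type, had a log2 difference of -0.06 (adjusted p = 0.852). The median over the 15 was 0.06.

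Among the further germline genes, the probe sets with strong signal did not pass. MAGEA12 had log2 signals of 11.78 ± 0.09 and 11.84 ± 0.08 and a log2 difference of 0.06. MAGEA6 had 11.75 ± 0.07 and 11.72 ± 0.12 and a log2 difference of -0.02. The probe set shared by MAGEA3 and MAGEA6 had -0.05, and the one shared by MAGEA2 and MAGEA2B had 0.05. Adjusted p in limma lay between 0.707 and 0.917 for these 4 probe sets, all of which were above the reference 95th percentile in both groups. Several are of the _x_at kind, and the MAGEA genes are near copies, so the signal of 1 gene cannot be told from that of another. Of the 5 probe sets that several MAGE genes share, 0 passed limma (0 without adjustment at 0.05, 0 by analysis of variance). The falls were thus not common to the germline probe sets with signal on this array. How many separate genes these probe sets read cannot be told. MAGEC2 fell on 1 probe set, and the probe sets of MAGEA1, MAGEA12 and MAGEA6 did not pass.

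**Figure D3:**
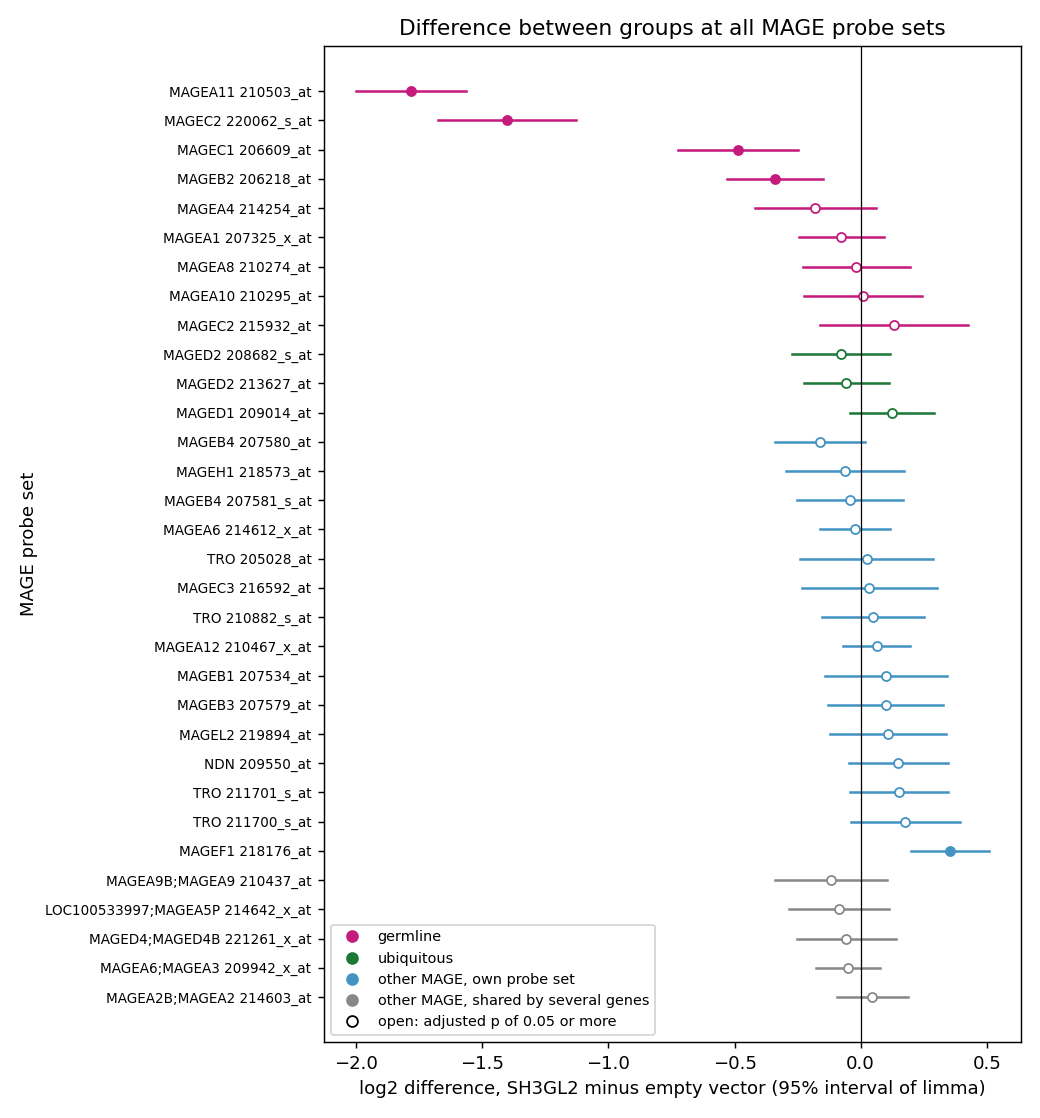
Log2 difference, SH3GL2 minus empty vector (horizontal axis, points, with the 95% interval of limma as lines), at every MAGE probe set, grouped as germline members, ubiquitous members, other MAGE genes and probe sets shared by several genes. Filled points passed an adjusted p of 0.05: MAGEA11, MAGEC2, MAGEC1 and MAGEB2 to the left and MAGEF1 to the right.

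At least a 2-fold lower signal was seen at 2 of the 9 germline probe sets and at 0.158% of all probe sets, 35 of 22215. MAGEA11 is 1 of these 2, and with signals raised to the reference median its difference of -0.81 is short of 2-fold. Falls were rarer where signal was low. Of 10484 probe sets with both group means at or under the reference 95th percentile 0.839% fell and 0.544% rose, and MAGEA11, MAGEC1 and MAGEB2 are among those that fell.

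**Figure D4:**
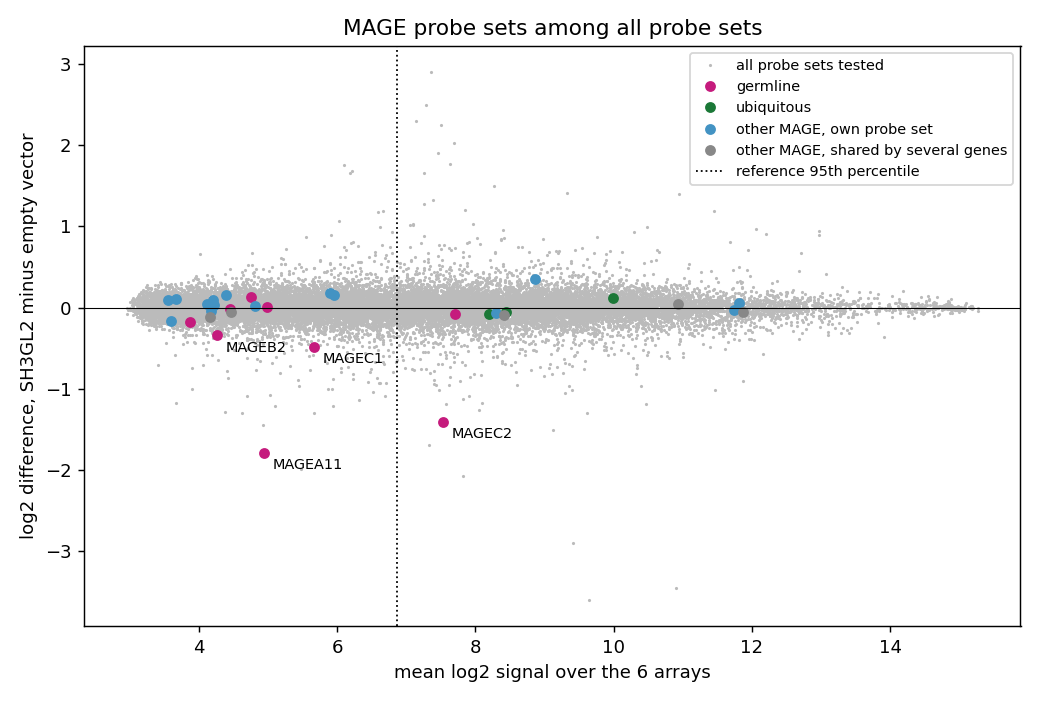
Log2 difference, SH3GL2 minus empty vector (vertical axis), against the mean log2 signal over the 6 arrays (horizontal axis), with all 22215 probe sets in gray and MAGE probe sets in color. MAGEA11 and MAGEC2 stand below the gray band at their signal, and the MAGED points lie within it.

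The genes beside the members were then read in their order on the X chromosome (RefSeq, GRCh38.p14). On the centromeric side of MAGEC2 the measured genes are MAGEC1 and MAGEC3, followed by the SPANX sperm protein genes. All 3 SPANX probe sets were lower, by -2.90 to -3.60 on the log2 scale. MAGEC3, between MAGEC1 and SPANX, had a log2 difference of 0.03 (adjusted p = 0.939 from limma) at means of 4.20 and 4.23, under the reference median. LDOC1, within the SPANX stretch, had -0.38 (adjusted p = 0.125 from limma). On the far side UBE2NL had -0.09 and the FMR1 probe sets -0.11 and -0.02. Within 7 measured genes on each side of MAGEC2, and without the SPANX probe sets, 1 of 22 probe sets fell, that of MAGEC1. Around MAGEA11, 0 of 22 probe sets within 6 measured genes on each side passed limma, with log2 differences from -0.41 to 0.15. Its closest measured neighbors HSFX1 and HSFX2, which share a probe set, had 0.06. None of the 12 neighboring probe sets of MAGED2 and none of the 4 of MAGED1, within 3 measured genes on each side, passed either. Among all probe sets 4.17% passed in either direction, a share at which counts of 0 or 1 in such windows tell little. These windows were chosen after the values were seen.

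**Figure D5:**
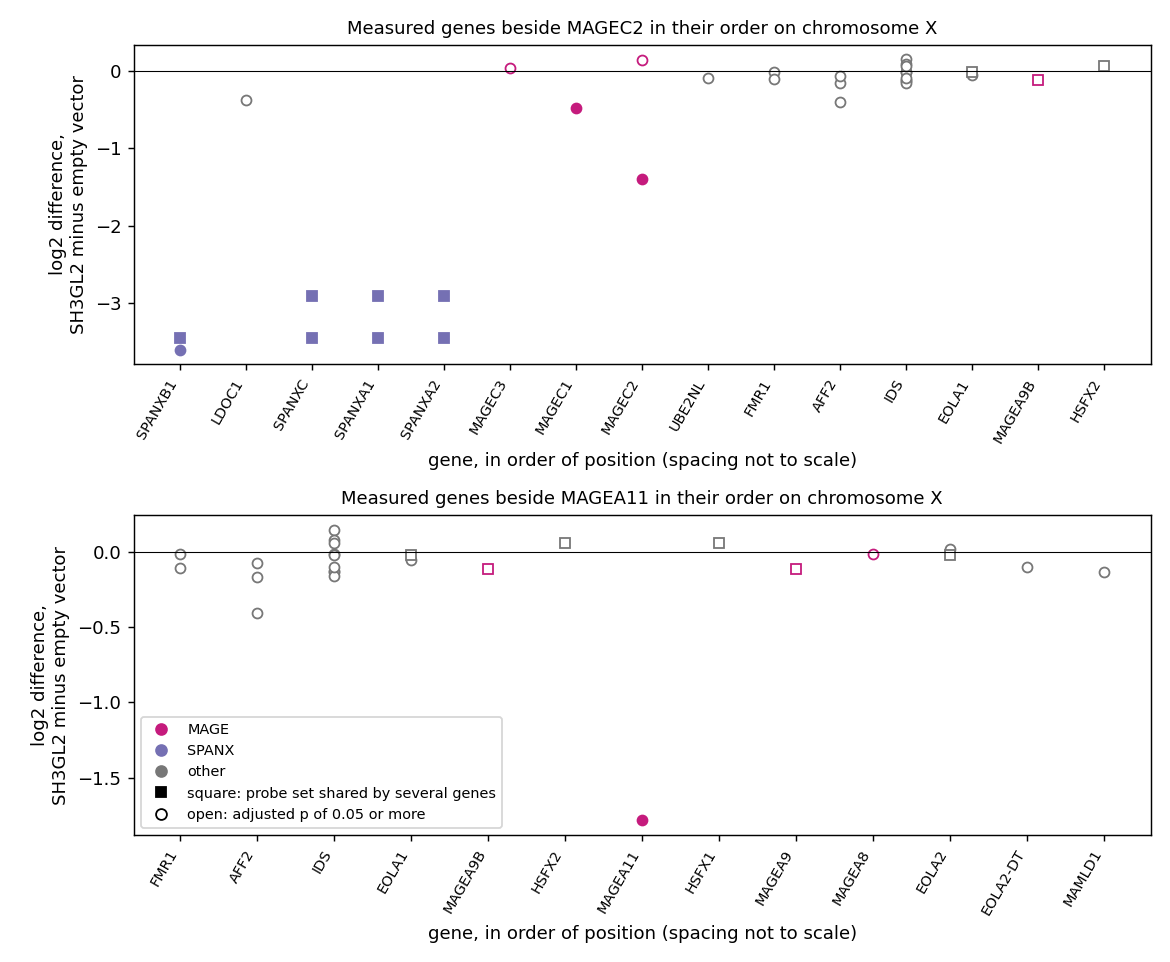
Log2 difference, SH3GL2 minus empty vector (vertical axis), for measured genes around MAGEC2 (top) and MAGEA11 (bottom) in their order on the X chromosome, with 1 point per probe set, squares for probe sets shared by several genes and open points where the adjusted p was 0.05 or more. The SPANX points lie at -2.90 to -3.60 on 1 side of MAGEC1 and MAGEC2, and MAGEA11 is the only filled point of the bottom panel.

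Promoter sequences were compared because germline MAGE promoters are known for binding ETS factors, which read a GGAA or GGAT core, when they are free of methylation. RefSeq windows of 300 bases (250 before and 50 after a transcript start, GRCh38.p14) were held for 8 of the 10 members, and not for MAGEA1 and MAGEA10. The longest word common to the windows of the 4 genes that fell was 9 letters, CCGGATGTG, searched on both strands. It is shown in capitals in the last 100 bases before the start and the first 10 after it, for these genes and, for contrast, for MAGEA4, which did not pass, and for both MAGED genes, with 1 start each.
MAGEA11, chrX:149711960-149712069, plus strand: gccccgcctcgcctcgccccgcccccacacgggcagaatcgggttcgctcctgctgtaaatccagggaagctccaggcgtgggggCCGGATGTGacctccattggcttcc
MAGEC2, chrX:142205281-142205390, minus strand: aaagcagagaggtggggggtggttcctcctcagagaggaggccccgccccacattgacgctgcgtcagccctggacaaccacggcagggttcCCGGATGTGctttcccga
MAGEC1, chrX:141903794-141903903, plus strand: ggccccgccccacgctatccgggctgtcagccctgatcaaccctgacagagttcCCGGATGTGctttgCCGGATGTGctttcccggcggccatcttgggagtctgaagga
MAGEB2, chrX:30215463-30215572, plus strand: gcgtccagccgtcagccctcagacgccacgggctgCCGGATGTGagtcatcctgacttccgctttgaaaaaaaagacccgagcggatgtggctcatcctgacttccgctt
MAGEA4, chrX:151912374-151912483, plus strand: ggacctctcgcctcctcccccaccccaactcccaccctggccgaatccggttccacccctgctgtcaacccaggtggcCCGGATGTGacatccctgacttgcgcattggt
MAGED1, chrX:51802976-51803085, plus strand: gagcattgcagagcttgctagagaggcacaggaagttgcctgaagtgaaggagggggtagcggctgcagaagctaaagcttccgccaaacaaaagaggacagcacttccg
MAGED2, chrX:54807645-54807754, plus strand: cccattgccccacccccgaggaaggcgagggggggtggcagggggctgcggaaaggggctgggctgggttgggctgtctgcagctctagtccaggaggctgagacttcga

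The word occurred in 0.339% of all windows, 119 of 35116. MAGEC1 held it at 2 places. It was in none of the 2 windows of MAGED1, the 2 of MAGED2 and the 1 of MAGEA8. All 4 genes that fell hold it, by the way it was chosen. MAGEA4, MAGEA12, MAGEB1, MAGEA2, MAGEA2B, MAGEA9 and MAGEA9B also hold it in a window and did not pass. MAGEA4, MAGEB1 and the probe set shared by MAGEA9 and MAGEA9B had group means below the reference median. MAGEA2 and MAGEA2B share a probe set. Of 45 measured genes outside the MAGE family with the word in a window, 0 fell in limma (3 lower without adjustment at 0.05, 0 by analysis of variance). Among all measured genes with a window 2.92% fell, a share at which 0 of 45 tells little. A related ETS core, CCGGAA on either strand, which shares its first 5 letters with the word and can overlap it on the opposite strand, was in 17.2% of all windows. It was in 1 of the 2 windows of MAGED1 and 1 of the 2 of MAGED2, and in no window of the 6 germline members that had one. It did not separate the types in the rest of the family, since windows of the germline genes MAGEA3, MAGEA6, MAGEB6 and MAGEB16 hold it and those of MAGED4 and MAGED4B do not. The number of CG pairs per window, which methylation acts on, was 21 for MAGEA11 and MAGEB2, 14 for MAGEC1 and 10 for MAGEC2. It was 12 for MAGEA8, 10 to 15 for MAGEA4, 10 and 20 for MAGED1, and 10 and 11 for MAGED2. The median over all windows was 14. The word was found after the values were seen, and a match is a description of the letters only.

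Partners of MAGE proteins were read from a list of 40 ubiquitin ligases, SMC complex subunits, receptors and substrates. Of these, 30 genes were measured on 61 probe sets, of which 1 fell, 0 rose (7 higher without adjustment at 0.05, 0 by analysis of variance) and 60 did not pass. The gene that fell was SMC5, a subunit of the SMC5/6 complex that holds the MAGE protein NSMCE3, with a log2 difference of -0.41 on 1 of 2 probe sets (adjusted p = 0.0133 from limma). The other had -0.27 (adjusted p = 0.259 from limma), and neither passed the analysis of variance. TRIM28, the ligase bound by MAGEC2, had a log2 difference of 0.09 (adjusted p = 0.668). TRIM27, which pairs with MAGEL2, had 0.01 to 0.05 on 3 probe sets. The median over the list was 0.03. Among all probe sets 2.18% were lower and 1.99% were higher, so 1 fall among 61 is near that share.

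The genes most like MAGEC2 and MAGEA11 were sought outside the family, by the root mean square difference of log2 values over the 6 arrays after each probe set's empty vector mean was subtracted. For the first MAGEC2 probe set these were RUNX1T1, a transcriptional corepressor (0.17), PCOLCE, which enhances procollagen processing (0.18), and HBE1, an embryonic globin (0.22). For MAGEA11 they were FBXL7, an F-box protein (0.10), PLAC8 (0.27) and NCAM1, a neural adhesion molecule (0.28). None of the 6 genes lies on the X chromosome. With 6 arrays in 2 groups this likeness is mostly that of the group difference.

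Germ cell genes outside these families were near background and none passed the test. Of 35 probe sets for 26 such genes 0 passed limma (1 without adjustment at 0.05, 0 by analysis of variance), 2 had a group mean above the reference 95th percentile, and the mean log2 signal of the list was 4.62 to 4.78 over the empty vector arrays and 4.72 to 4.77 over the SH3GL2 arrays. The germ cell markers DDX4, DAZL and PRM1 were at 3.88, 3.38 and 5.41 with empty vector. Of 30 probe sets for leukocyte, endothelial, glial, muscle and red cell genes 0 passed limma (3 without adjustment at 0.05, 0 by analysis of variance), at list means of 5.11 to 5.21 and 5.11 to 5.17. Probe sets of the mesenchymal genes expected in this line were lower at 11 of 30, against 2.18% of all probe sets. None was higher (0 higher without adjustment at 0.05). The list mean was 9.62 to 9.67 with empty vector and 9.41 to 9.44 with SH3GL2. The 11 were of 7 of the 10 genes, and VIM and MSN did not pass. Among the genes that fell, S100A4, a calcium-binding protein of motile cells, had a log2 difference of -0.97. AXL, a receptor tyrosine kinase, had -0.49 (adjusted p = 5.95e-06 and 0.00011 from limma). The part of that shift in the MAGE values was not tested.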

How the data were processed

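RNA of each sample was hybridized to 1 Affymetrix human genome array, 6 in all. The authors scanned them with GCOS software, the submitters' processing notes name MAS5, and the signals they deposited are log2 values (2.82 to 15.31). How arrays were scaled to each other is not given in the sources used here. Values were used as deposited. Of 22277 probe sets, 62 controls were left out. By the platform annotation, 19064 of the others name 1 gene, 1043 name several genes and 2108 are unnamed. Groups were mapped from sample titles and compared by the two-sided moderated test of limma 3.58.1 in R 4.3.3, with a variance prior that follows intensity and Benjamini-Hochberg adjustment over 22215 probe sets. With 3 arrays per group an exact permutation p cannot go below 0.1. The fit was tested on simulated data.

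Every listed member is named, with up to 4 genes of each other list by adjusted p. SH3GL2 and defining markers are named as checks. MAGEH1, MAGEA12, MAGEA6, the shared probe sets, TRIM28, TRIM27 and neighbors were named beyond the rule, after their values were seen. Members and lists were chosen with earlier results of these data known. Replicate numbers were not taken as pairs: residual correlations of same-numbered arrays were -0.01, 0.13 and 0.15, not all over the 0.1 needed. Precision is limited by the number of arrays, and 51.9% of probe sets had a mean above the reference 95th percentile. Figures used Python 3.11.15 and matplotlib 3.10.9.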

Additional observations from a re-analysis of the deposited data

How the results depend on the processing

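The count of 4 germline MAGE probe sets that fell was 2 once lower signals were raised to the reference median, 2 with only the 17100 probe sets brighter than that median, 2 at an adjusted p under 0.01 and 1 in the analysis of variance, and between 2 and 3 with 1 array left out. It was 2 without empty vector replicate 2 and without each SH3GL2 array. The brighter filter leaves out the probe sets of MAGEA11 and MAGEB2 by construction, and it moved the germline median from -0.18 to -0.49 over the 3 probe sets left. Over all 9 the median was smaller in size with the floor (-0.05) and with 16 added to the linear signal (-0.09), and ran from -0.29 without empty vector replicate 3 to -0.10 without empty vector replicate 1. MAGEA11 passed in all 14 settings that could be fitted to it, and the first MAGEC2 probe set in 14 of 15, all but the analysis of variance. With 1 array left out their log2 differences ran from -1.86 to -1.71 and from -1.52 to -1.28. MAGEC1 lost its call with this floor (adjusted p = 0.149 in limma) and in the analysis of variance (adjusted p = 0.248). All its arrays lie above the floor, so its values and its log2 difference of -0.49 were the same with the floor. Its unadjusted p in limma was 0.000736 as reported and 0.00687 with the floor, so the variance prior, taken over all probe sets, differed. The part of the adjustment, also taken over all probe sets, was not tested. MAGEB2 had no difference left with the floor, since all its arrays lie under it. It also lost its call with a robust prior (adjusted p = 0.0513 in limma), in the analysis of variance (adjusted p = 0.0786) and with a replicate block (adjusted p = 0.0643 in limma). With the replicate block the germline count was 3 and the MAGED count 0, while the fit over all probe sets called 573 lower and 506 higher in place of 485 and 441. Own-number correlation was the highest for 4 arrays of 6. The block changed no other call among the members. No MAGED probe set passed under any alternative, and no called difference changed sign. Of 174 values of single probe sets, 9 that did not pass changed sign. Counts over all probe sets, 485 lower and 441 higher, fell to 164 and 139 at the floor, to 44 and 33 by analysis of variance and to 327 and 270 without the intensity trend, and ran from 296 to 437 lower and from 184 to 376 higher with 1 array left out.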
